A study of Mus musculus with 8 samples.

Results

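Complement components and receptors were followed here as 9 genes picked by symbol, all 9 of them found among the 36708 rows of the deposited expression table. They were C1qa, C1qb and C1qc, which encode the chains of the recognition protein C1q, the component genes C3 and C4b, the alternative pathway genes Cfb (factor B) and Cfp (properdin), and the anaphylatoxin receptor genes C3ar1 and C5ar1. The libraries were made from macrophages sorted from mouse left ventricles, in 4 libraries labelled LOY BMT (genotype LOY) and 4 labelled Control BMT (genotype Control), where BMT stands for bone marrow transplantation and LOY for loss of the Y chromosome. Mice of both groups had received a transplant and both carry the treatment label Control. For each library 6000 living macrophages were sorted as positive for CD45.2, CD64 and a red fluorescent protein (RFP) and negative for Ly6G, a gate that leaves out macrophages without the red protein. The labels give no strain, age or number of animals per library, and do not say how the Y chromosome was removed. The p-values therefore measure the spread between these libraries, which may be partly technical.

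Complement is a cascade of plasma proteins that tags particles and dying cells for uptake, attracts leukocytes and can open membranes. C1q starts the classical pathway on bound antibody or on dying cells, C4 and C2 are then cleaved to form an enzyme that cleaves C3, and factor B and properdin build and stabilise the alternative pathway enzyme that amplifies C3 cleavage. The small fragments C3a and C5a act on leukocytes through the receptors encoded by C3ar1 and C5ar1. Tissue macrophages are a main source of C1q, whereas most other circulating components come largely from the liver.

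Expression was given as TPM, a length-corrected abundance scaled to a sum of 1000000 in each library, which keeps no record of depth. The libraries each had 11396 to 12139 genes at 1 TPM or more. The summed TPM of the Y-linked genes Ddx3y, Eif2s3y, Kdm5d and Uty was 2.77, 46.4, 1.49 and 2.12 in LOY replicates 1 to 4, against 104.0, 95.2, 80.8 and 109.1 in control replicates 1 to 4. LOY replicate 2 thus held 47.7% of the control mean. The macrophage marker genes Adgre1, Csf1r, Cd68, Fcgr1, Mertk and Lyz2 were all present in every library, at 12.1 TPM or more. Their sum, mostly Lyz2, was 17843 to 27179 TPM in LOY and 18671 to 23444 TPM in control libraries. Mertk was higher in every LOY library, at 35.5 to 73.3 TPM against 12.1 to 32.1 TPM, as were 6.76% of all genes tested. The other macrophage markers overlapped between the groups. The 8 listed monocyte markers summed to 500.4 to 3264 TPM in LOY and 1182 to 3653 TPM in control libraries. The 8 listed resident macrophage markers summed to 1068 to 3180 TPM in LOY and 1020 to 1823 TPM in control libraries. LOY replicate 1 had the lowest monocyte and the highest resident sum of all libraries. Neutrophil markers, mostly Csf3r, summed to 83.6 to 102.2 TPM in LOY and 44.5 to 88.9 TPM in control libraries, with Ly6g at or under 0.197 TPM. Csf3r itself, like Mertk, was higher in every LOY library, at 82.9 to 97.0 TPM against 41.9 to 72.2 TPM in control libraries. B cell markers, mostly Cd79b, summed to 39.6 to 46.6 TPM in LOY and 51.5 to 77.1 TPM in control libraries. Cardiomyocyte markers summed to 99.4 to 231.8 TPM in LOY and 83.2 to 153.3 TPM in control libraries, highest in LOY replicate 1. The part of all these markers in the results was not tested.

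Of the 9 genes, 0 passed in limma with Benjamini-Hochberg adjustment over all 11725 genes tested, where 0.0% of genes passed. The Y-linked genes Ddx3y, Eif2s3y, Kdm5d and Uty did not pass either, each with a limma adjusted p of 0.179. Their log2 fold changes ran from -4.28 (Eif2s3y) to -1.75 (Kdm5d), so a gene that did not pass is not shown to be unchanged. An adjusted p under 0.05 was reached by 0 of the 9 in the authors' deposited table, where 3.82% of genes were higher and 0.124% lower at that threshold. C4b and C3 had higher means in LOY libraries, by 1.86 and 1.71 times. The 3 C1q genes had slightly lower means, at 0.917, 0.858 and 0.880 of the control means for C1qa, C1qb and C1qc. Factor B, properdin and both receptors had ratios of means between 0.919 and 1.10. C4b was the single one of the 9 with an unadjusted limma p under 0.05, higher in LOY libraries, and 0 were lower. Among all genes tested, 22.7% had such a p, 19.3% being higher and 3.45% lower. In 0 of the 9 genes did the LOY libraries lie wholly above or below the control libraries, against 9.37% of all genes tested. Of the 9, 5 had a log2 fold change above 0, as did 68.2% of all genes tested. The median of the 9 was 0.078 on the log2(TPM + 1) scale, and that of all genes tested was 0.16. That median of all genes was 0.00053 after median-of-ratios scaling, after which 7 of the 9 genes were below 0.

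**Figure D1:**
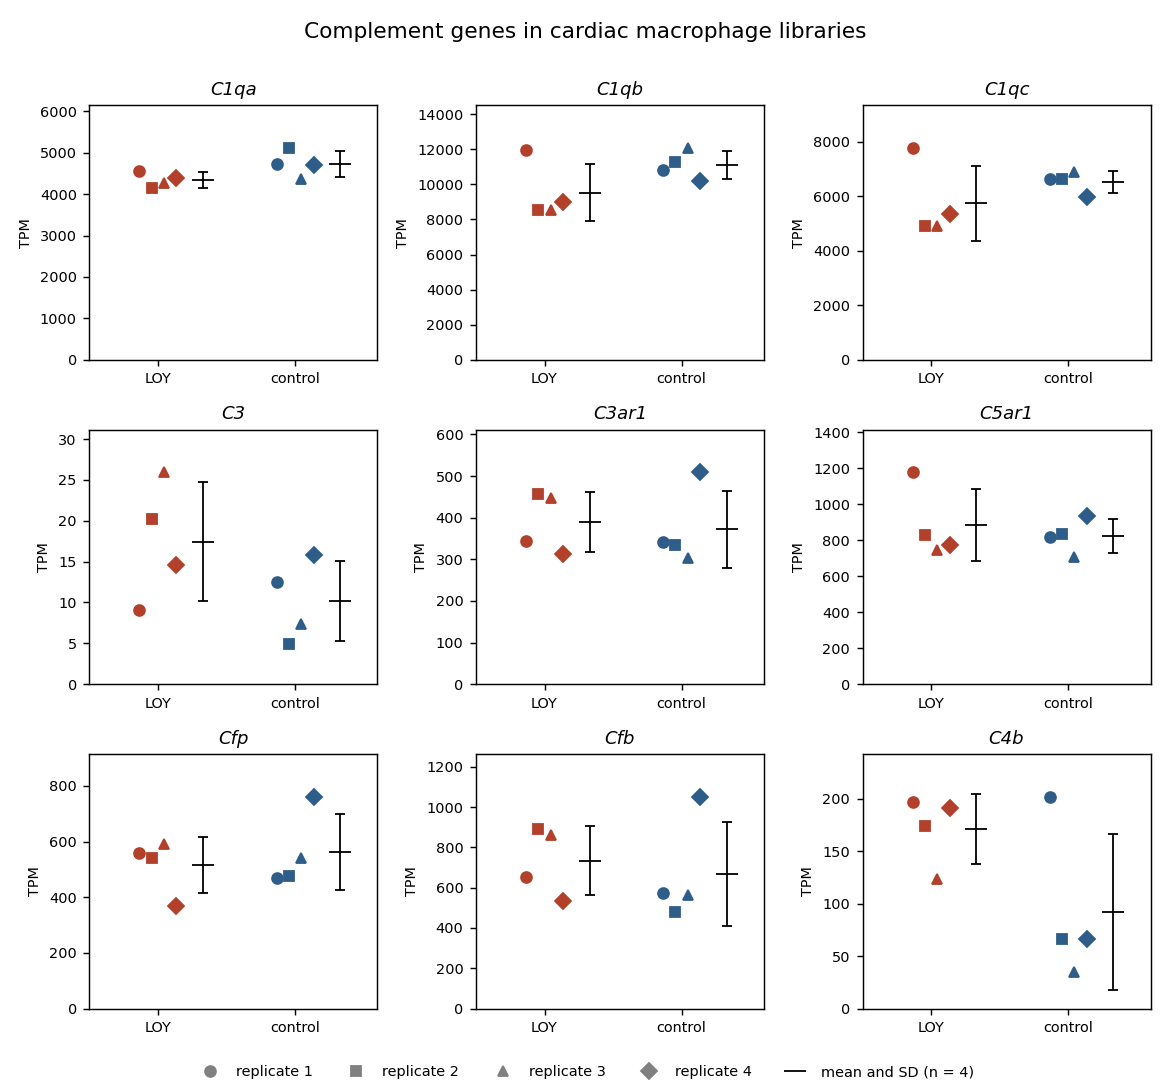
TPM of the 9 complement genes in each library, with LOY libraries in red and control libraries in blue, a marker shape per replicate number, and the mean with its SD (n = 4) beside each group. Each vertical axis starts at 0. LOY and control libraries overlap in all 9 panels, and in C4b the overlap comes from control replicate 1 at 201.7 TPM.

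The C1q genes were by far the most abundant of the set. They lie side by side on chromosome 4 (GRCm38), C1qb from 136880129 to 136886187, C1qc from 136889804 to 136893065 and C1qa from 136895917 to 136898803, all on the minus strand and with 3 exons each. In the table, C1qb ranked 9, C1qc 15 and C1qa 23 by mean TPM among all genes. Together they took 2.43%, 1.76%, 1.77% and 1.88% of all TPM in LOY replicates 1 to 4, against 2.22%, 2.30%, 2.33% and 2.09% in control replicates 1 to 4. The 3 LOY libraries other than replicate 1 thus lay below every control library, while LOY replicate 1 lay above every control library. In bulk RNA, fewer cells of a type and less RNA per cell cannot be told apart.

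C1qb, which encodes the B chain, stood at 11939, 8563, 8557 and 9002 TPM in LOY replicates 1 to 4, against 10800, 11270, 12086 and 10194 TPM in control replicates 1 to 4. LOY replicates 2, 3 and 4 were lower than all controls, and LOY replicate 1 lay near the highest control. The log2 fold change was -0.23 (SE 0.15, 95% interval -0.56 to 0.095; limma adjusted p = 0.343). C1qc, which encodes the C chain, stood at 7768, 4918, 4899 and 5358 TPM in LOY replicates 1 to 4 and 6618, 6628, 6869 and 5962 TPM in control replicates 1 to 4. LOY replicates 2, 3 and 4 were again lower than all controls, while LOY replicate 1 lay above all of them. Its log2 fold change was -0.21 (SE 0.17, 95% interval -0.58 to 0.16; limma adjusted p = 0.440). C1qa, which encodes the A chain, varied least, with 4563, 4138, 4269 and 4396 TPM in LOY replicates 1 to 4 and 4734, 5118, 4364 and 4714 TPM in control replicates 1 to 4. The groups overlapped only through control replicate 3, which lay below LOY replicates 1 and 4 (log2 fold change -0.12, SE 0.12; limma adjusted p = 0.518). An exact two-sided permutation test on TPM over the 70 assignments of the libraries gave p = 0.0857 for C1qa, 0.114 for C1qb and 0.343 for C1qc, where 0.0286 is the smallest p possible.

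Leaving out LOY replicate 1 moved the log2 fold changes of C1qb and C1qc to -0.35 and -0.37, with a limma adjusted p of 0.139 for both. Both then had an unadjusted p under 0.05 and were lower, as were 5.09% of all genes, and C3 and C4b had such a p and were higher, as were 21.0%. That library had 3180 TPM in the 8 resident markers, against 1068 to 1395 TPM in the other LOY libraries. The part of these markers in the C1q values was not tested. Relative to the median gene the C1q genes were lower still, at -0.31, -0.41 and -0.39 for C1qa, C1qb and C1qc after median-of-ratios scaling. After a trend on transcript length was removed per library they were at 0.0012, -0.11 and -0.10.

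The proportions of the chains differed between libraries. C1qb over C1qa was 2.62, 2.07, 2.004 and 2.05 in LOY replicates 1 to 4, against 2.28, 2.20, 2.77 and 2.16 in control replicates 1 to 4. C1qc over C1qa was 1.70, 1.19, 1.15 and 1.22 in LOY replicates 1 to 4, against 1.40, 1.29, 1.57 and 1.26 in control replicates 1 to 4. LOY replicate 1 and control replicate 3 stood high in both ratios, and they were also the 2 libraries with the highest C1qb. The ratio of C1qb to C1qc varied less, from 1.54 to 1.75 in LOY and from 1.63 to 1.76 in control libraries. These ratios are taken within a library and do not depend on its scaling.

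RefSeq promoter windows (GRCm38.p6, 250 bases before to 50 after the annotated start) matched 6 of the 9 genes by symbol, all but C1qa, Cfb and C4b. The windows of C1qb (chr4:136886151-136886450) and C1qc (chr4:136892865-136893164) are shown because these genes moved together across libraries, and that of C3 (chr17:57228087-57228386) because it had the larger difference between groups among the 6. Each is written 5′ to 3′ on the minus strand, with matches to any of 5 searched motifs in capitals.
C1qb: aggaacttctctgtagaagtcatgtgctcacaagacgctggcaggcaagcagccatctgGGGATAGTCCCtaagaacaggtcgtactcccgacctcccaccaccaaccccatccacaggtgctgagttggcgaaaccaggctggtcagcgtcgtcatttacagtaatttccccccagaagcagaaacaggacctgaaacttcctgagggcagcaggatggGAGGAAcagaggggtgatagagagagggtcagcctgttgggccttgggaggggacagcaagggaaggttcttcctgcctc
C1qc: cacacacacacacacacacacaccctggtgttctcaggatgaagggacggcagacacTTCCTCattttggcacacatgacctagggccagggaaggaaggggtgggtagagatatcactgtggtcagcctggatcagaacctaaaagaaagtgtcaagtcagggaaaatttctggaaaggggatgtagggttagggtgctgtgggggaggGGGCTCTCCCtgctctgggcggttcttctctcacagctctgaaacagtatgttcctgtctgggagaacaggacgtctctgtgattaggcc
C3: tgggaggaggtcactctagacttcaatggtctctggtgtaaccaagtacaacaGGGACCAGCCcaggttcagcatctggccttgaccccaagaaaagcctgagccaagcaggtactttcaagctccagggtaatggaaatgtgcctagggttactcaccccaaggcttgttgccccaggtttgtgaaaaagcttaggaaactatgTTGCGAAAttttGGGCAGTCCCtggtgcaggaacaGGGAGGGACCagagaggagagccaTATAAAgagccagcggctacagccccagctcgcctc
The motifs, read on both strands, were GAGGAA, the core bound by the macrophage factor PU.1, TTGCNNAA for C/EBP factors, GGGA and CC with 4 free bases between them for NF-kB, TTCNNNGAA for STAT dimers and the TATA box letters TATAAA. Both C1q windows held GAGGAA, at -30 to -25 in C1qb and, on the opposite strand, at -193 to -188 in C1qc, counted from the annotated start. Of all 32851 windows of this length, 28.3% held it. The NF-kB letters occurred in both C1q windows and 3 times in that of C3, and in 20.7% of all windows. In C1qb the match from -191 overlaps its mirror match on the other strand by all but a base at each end. The C3 window also held TTGCGAAA at -45 to -38, a C/EBP pattern found in 10.8% of all windows, and TATAAA at 15 to 20, found in 13.6%. The STAT pattern, in 8.30% of all windows, was not among the letters of these 3. Such matches describe letters and not bound sites.

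C4b encodes complement component 4, which is deposited on targets after C1q has bound and forms part of the classical C3 convertase. It lies on chromosome 17 from 34728380 to 34743882 in the major histocompatibility region, on the minus strand, with 41 exons in its longest transcript. C4b stood at 197.0, 173.8, 123.4 and 191.0 TPM in LOY replicates 1 to 4, against 201.7, 66.1, 35.1 and 66.1 TPM in control replicates 1 to 4. The 4 LOY libraries lay above 3 of the 4 controls, and control replicate 1 was the highest library of all. The means were 171.3 ± 33.4 TPM in LOY and 92.3 ± 74.4 TPM in control libraries (SD, n = 4). The log2 fold change was 1.16 (SE 0.42, 95% interval 0.22 to 2.10), and C4b did not pass over all genes (limma adjusted p = 0.182). The exact two-sided permutation p on TPM was 0.143.

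Without control replicate 1 the C4b difference was 1.63 (SE 0.25; limma adjusted p = 0.0110), in a fit where 14.9% of all genes passed as higher. Without control replicate 3 it was 0.81 and its unadjusted p exceeded 0.05. Median-of-ratios scaling gave 0.98, quantile normalization 1.08 and removal of the length trend 0.79. In the authors' deposited table C4b had a log2 fold change of 1.03 and an adjusted p of 0.0726. Fibroblasts, which also make C4, were represented by markers that summed to 22.2 to 40.7 TPM in LOY and 23.8 to 40.2 TPM in control libraries. Of the 8 markers, Dcn was highest, at 10.4 to 19.9 TPM in LOY and 12.6 to 24.1 TPM in control libraries, and Pdgfra was lowest in its maximum, at or under 0.421 TPM in all libraries. Their part in the C4b values was not tested. C4a, a near copy of C4b on the same chromosome, was not found in the deposited table by gene identifier or by symbol. Reads that match both genes may have been counted for C4b.

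C3 encodes the central component, whose cleavage feeds all pathways. It lies on chromosome 17 from 57203970 to 57228136. It was the least abundant of the 9, with 9.03, 20.2, 25.9 and 14.6 TPM in LOY replicates 1 to 4, against 12.5, 4.91, 7.40 and 15.9 TPM in control replicates 1 to 4. LOY replicates 2 and 3 lay above every control, LOY replicate 4 below control replicate 4 alone, and LOY replicate 1 inside the control range. The log2 fold change was 0.74 (SE 0.37, 95% interval -0.079 to 1.57; limma adjusted p = 0.250), and the exact permutation p was 0.143. Leaving out a library moved it between 0.48, without control replicate 2, and 1.01, without LOY replicate 1. It was 0.39 after the length trend was removed. The authors' deposited table gave C3 a log2 fold change of 0.92 and an adjusted p of 0.116. With limma's library weights C3 and C4b both passed, at 1.22 and 1.27 with adjusted p of 0.0281 and 0.0170, in a fit where 23.5% of all genes passed as higher and 3.0% as lower. C1qb and C1qc then had an unadjusted p under 0.05 at -0.32 each, where 33.6% of all genes were higher and 7.2% lower.

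**Figure D2:**
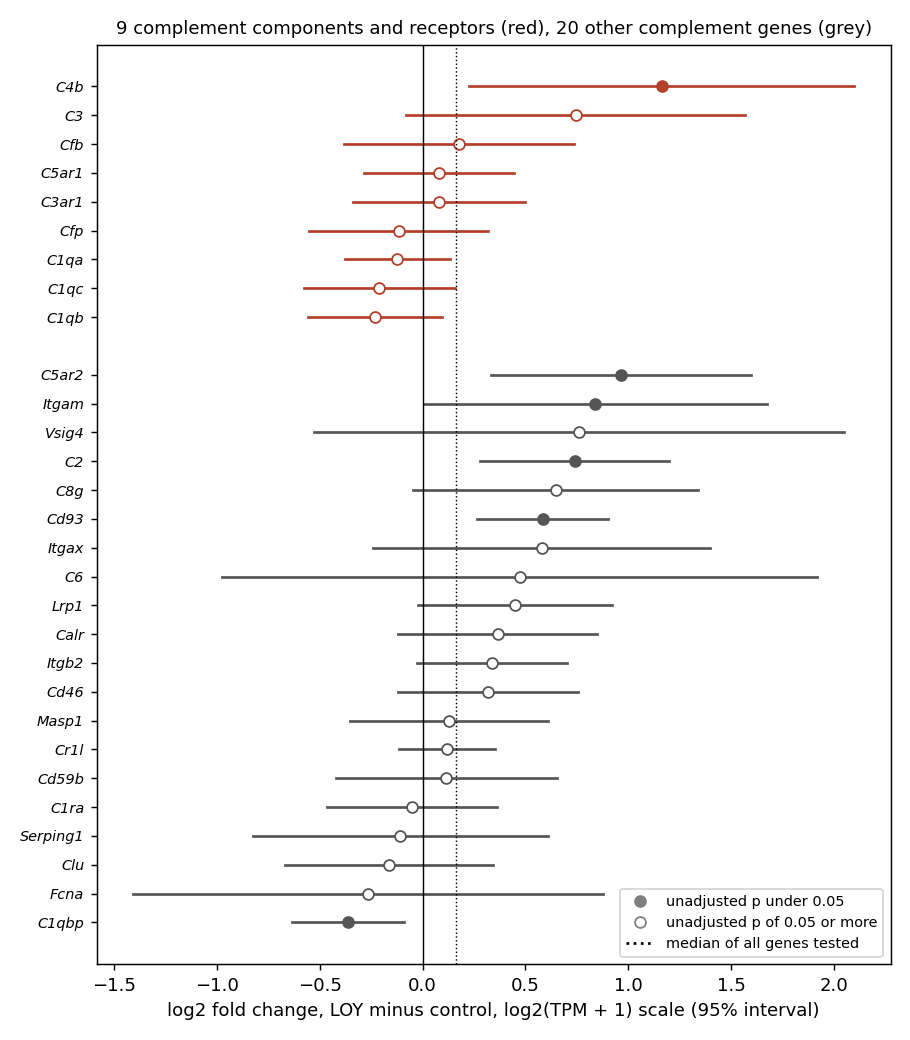
Log2 fold changes (LOY minus control, log2(TPM + 1) scale) with 95% intervals from limma for the 9 genes in red and 20 of the 21 other complement genes in grey, sorted within each set. Filled points have an unadjusted p under 0.05, and the dotted line is the median of all genes tested at 0.16. C4b stands at the top at 1.16, and the 3 C1q genes at the bottom of the red set between -0.23 and -0.12.

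Factor B, the serine protease that joins C3b in the alternative pathway convertase, was far more abundant than C3 in these cells. Cfb (chromosome 17, 34856374 to 34862518) stood at 651.0, 890.8, 863.2 and 532.7 TPM in LOY replicates 1 to 4, against 572.1, 478.6, 566.1 and 1051 TPM in control replicates 1 to 4. The LOY range lay inside the control range (log2 fold change 0.18, SE 0.25, 95% interval -0.38 to 0.74; limma adjusted p = 0.685). Control replicate 4 was the highest library, and the other controls, at 478.6 to 572.1 TPM, lay below LOY replicates 1, 2 and 3 but not all below LOY replicate 4. Without control replicate 4 the log2 fold change was 0.42 (limma unadjusted p = 0.060, adjusted p = 0.258). The gene model Gm20547 overlaps Cfb on the same strand and was listed at no more than 0.860 TPM. Cfp (chromosome X, 20925454 to 20931555), which encodes properdin, stood at 560.3, 541.8, 592.9 and 370.1 TPM in LOY replicates 1 to 4, against 470.5, 475.5, 539.4 and 760.9 TPM in control replicates 1 to 4. Its lowest library was LOY replicate 4 and its highest control replicate 4 (log2 fold change -0.12, SE 0.20, 95% interval -0.55 to 0.32; limma adjusted p = 0.737). The direction of Cfp turned without either of these 2 libraries.

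Both anaphylatoxin receptor genes had similar levels in the 2 groups. C3ar1 (chromosome 6, 122847138 to 122856161), the C3a receptor, stood at 343.9, 457.2, 446.7 and 312.7 TPM in LOY replicates 1 to 4, against 341.6, 334.2, 304.1 and 509.0 TPM in control replicates 1 to 4. Here again control replicate 4 was highest, followed by LOY replicates 2 and 3. C5ar1 (chromosome 7, 16246743 to 16259540), the receptor for C5a, stood at 1177, 830.3, 747.4 and 771.3 TPM in LOY replicates 1 to 4, against 819.6, 833.0, 706.1 and 936.6 TPM in control replicates 1 to 4. LOY replicate 1 was its highest library, and the other 3 LOY libraries lay within the control range. The log2 fold changes were 0.078 for C3ar1 (95% interval -0.34 to 0.50) and 0.080 for C5ar1 (95% interval -0.29 to 0.44), with limma adjusted p of 0.817 and 0.785. Both were near -0.10 after median-of-ratios scaling, so no direction can be given for either.

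Ordered by TPM, which corrects for length, the 9 genes had the same order of means in both groups. The means were 9515 ± 1629 TPM in LOY and 11087 ± 798.1 TPM in control libraries for C1qb, and 5736 ± 1371 and 6519 ± 389.3 TPM for C1qc. For C1qa they were 4341 ± 181.3 TPM in LOY and 4732 ± 308.4 TPM in control libraries (SD, n = 4 for each). C5ar1 came next with 881.5 ± 199.99 TPM in LOY and 823.8 ± 94.3 TPM in control libraries, then Cfb with 734.4 ± 172.0 and 666.9 ± 259.4 TPM. Cfp followed with 516.3 ± 99.7 TPM in LOY and 561.6 ± 136.6 TPM in control libraries, and C3ar1 with 390.1 ± 72.6 and 372.2 ± 92.6 TPM. C4b came below these, and C3 was last at 17.4 ± 7.28 TPM in LOY and 10.2 ± 4.94 TPM in control libraries (SD, n = 4 for each). C5ar1, Cfb and Cfp, neighbours in this order, overlapped across libraries, as did Cfp and C3ar1, and so did C1qc and C1qa. Within every single library, however, Cfp stood above C3ar1 and C1qc above C1qa. Each C1q gene stood above all the other 6 in every library.

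Across single libraries the genes fell into different patterns. The 3 libraries with the highest monocyte marker sums were control replicate 4, LOY replicate 3 and LOY replicate 2, at 3653, 3264 and 3064 TPM, and their Ly6c2, a marker of classical monocytes, ranged from 1307 to 1754 TPM against 45.2 to 659.2 TPM in the other libraries. These same 3 libraries were the 3 highest in C3, in Cfb and in C3ar1, and held 2 of the 3 highest values of Cfp. In C1qb and C1qc they included 2 of the 3 lowest values and 0 of the 3 highest. The 3 libraries with the highest resident marker sums were LOY replicate 1, control replicate 2 and control replicate 1. They held 2 of the 3 highest values of C1qa, C1qb, C1qc, C5ar1 and C4b, and 0 of the 3 highest of C3, Cfb and C3ar1. Control replicate 3, however, had the lowest resident sum of all libraries, at 1020 TPM, and the highest C1qb, at 12086 TPM. Its C1qc, at 6869 TPM, was below that of LOY replicate 1 alone, while its C5ar1 and C4b were the lowest of all libraries. These orders pool libraries of both groups and were looked up after the values were seen.

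**Figure D3:**
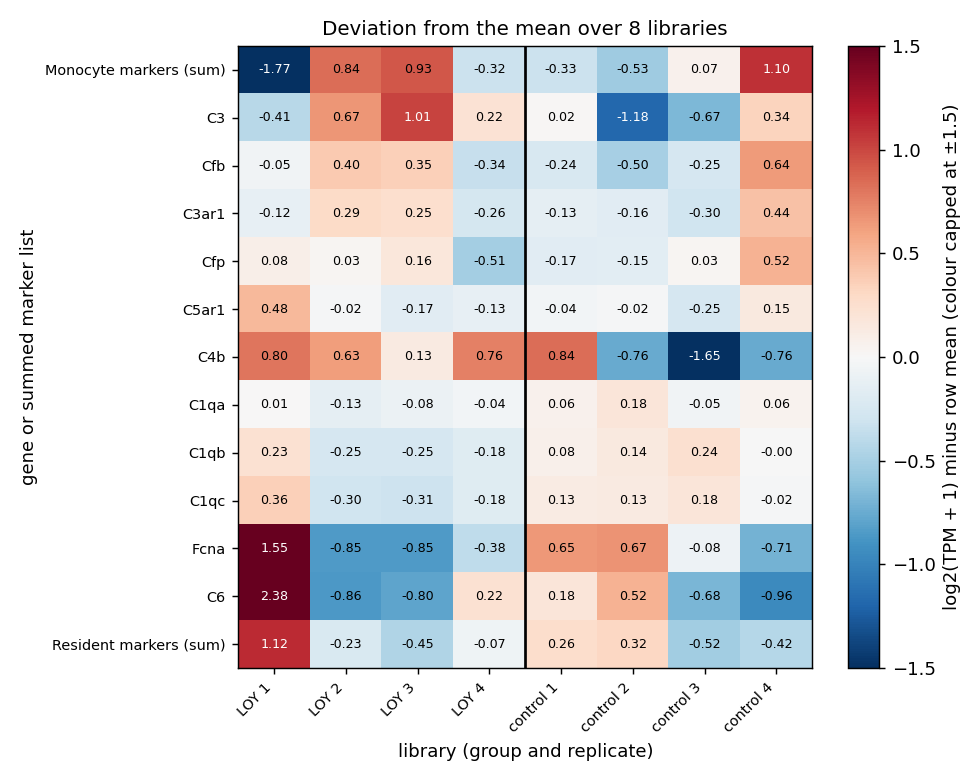
Deviation of log2(TPM + 1) from the mean over the 8 libraries for the 9 complement genes, 2 other complement genes (Fcna and C6, chosen after their values were seen) and the summed monocyte and resident macrophage markers, with LOY libraries left of the line. C3, Cfb and C3ar1 are high in LOY replicates 2 and 3 and control replicate 4, where the monocyte sum is high, and Fcna and C6 are highest in LOY replicate 1, where the resident sum is highest.

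With the log2 monocyte marker sum as a covariate, an alternative added after the data were seen, 0 of the 9 genes passed over all genes in limma. C3 was then at 0.83 (SE 0.24), C4b at 1.13 (SE 0.43), C1qb at -0.26 (SE 0.095) and C1qc at -0.24 (SE 0.096). Their limma adjusted p were 0.148, 0.163, 0.159 and 0.168, and their unadjusted p were under 0.05, in a fit where 21.4% of all genes were higher and 4.69% lower at that p. Without the covariate C3 was at 0.74, C4b at 1.16, C1qb at -0.23 and C1qc at -0.21. The marker sums of the groups overlapped, at 500.4 to 3264 TPM in LOY and 1182 to 3653 TPM in control libraries. The part of monocytes in these values was not tested. The exact share of monocytes in each library was not measured.

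By the highest Pearson correlation of log2(TPM + 1) over the 8 libraries among 10748 named genes, the 5 genes most like the mean of the C1q genes were Dguok, Phf14, Gapt, Rab13 and Ift27, with r from 0.962 to 0.988. Dguok, which encodes a mitochondrial deoxyguanosine kinase, stood at 116.2, 90.2, 89.1 and 95.8 TPM in LOY replicates 1 to 4, against 104.6, 112.4, 108.7 and 103.1 TPM in control replicates 1 to 4. Like C1qb, it was lower in LOY replicates 2, 3 and 4 than in every control. The 5 genes most like C3 were Rnf213, Csf1, Stat2, Mlec and Art2a, with r from 0.962 to 0.984. Stat2, a signal transducer of interferon receptors, stood at 114.2, 194.8, 188.0 and 148.5 TPM in LOY replicates 1 to 4, against 134.5, 73.9, 87.8 and 135.5 TPM in control replicates 1 to 4. Csf1, which encodes the macrophage growth factor M-CSF, stood at 2.93 to 7.05 TPM in LOY and 2.22 to 4.95 TPM in control libraries. These correlations are descriptions over 8 libraries that share the difference between groups and the scaling of TPM.

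The rest of the complement system was examined as 48 other genes found in the table, of which 21 reached a mean of 1 TPM. The other 27 stayed at or under 1.54 TPM in every library, among them C5 (Hc), C7, C8a, C8b and C9 of the terminal pathway, factor D (Cfd), factor I (Cfi) and both mannose-binding lectin genes. Of the 21 tested, 0 passed over all genes in limma. Without control replicate 1, 5 passed, all higher in LOY libraries (C2, C5ar2, C8g, Cd93 and Lrp1), in the fit where 14.9% of all genes passed as higher. With library weights 9 passed, these 5 with Calr, Itgam and Itgax as higher and C1qbp as lower, in the fit where 23.5% of all genes passed as higher and 3.0% as lower. At an unadjusted p under 0.05, 4 were higher and 1 was lower in LOY libraries, against 19.3% and 3.45% of all genes tested, so that the share of higher genes, 19.0%, was at the background. The median log2 fold change of the 21 was 0.36, with 16 above 0. Over all genes tested the median was 0.16, and 68.2% were above 0.

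The second C5a receptor gene, C5ar2, and the C2 gene were both higher in every LOY library than in every control. C5ar2 stood at 14.1, 23.0, 21.9 and 25.0 TPM in LOY replicates 1 to 4, against 12.8, 11.3, 5.08 and 13.4 TPM in control replicates 1 to 4 (log2 fold change 0.96, SE 0.29; limma adjusted p = 0.179). C2, which encodes the protease partner of C4 in the classical convertase and lies next to Cfb, stood at 3.99, 3.54, 3.78 and 5.89 TPM in LOY replicates 1 to 4, against 2.89, 1.72, 1.58 and 2.52 TPM in control replicates 1 to 4 (log2 fold change 0.74, SE 0.21; limma adjusted p = 0.179). For these genes the authors' deposited table gave log2 fold changes of 1.03 and 1.65 and adjusted p of 0.0371 and 0.00800. The 2 groups did not overlap upward in 6.76% of all genes tested. C2 and Gm20547 also overlap on the same strand, so their reads may be shared.

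Among binding proteins for C1q, Cd93, which encodes a transmembrane receptor once proposed to bind C1q, stood at 20.7, 25.9, 28.7 and 30.8 TPM in LOY replicates 1 to 4, against 17.5, 17.5, 16.5 and 17.2 TPM in control replicates 1 to 4 (log2 fold change 0.58, SE 0.14; limma adjusted p = 0.179). C1qbp, which encodes a mainly mitochondrial protein that also binds C1q, was lower in every LOY library, with 51.4, 64.4, 62.5 and 51.5 TPM in LOY replicates 1 to 4, against 67.5, 83.0, 71.6 and 74.1 TPM in control replicates 1 to 4 (log2 fold change -0.36, SE 0.12; limma adjusted p = 0.181). Downward, the groups did not overlap in 2.61% of all genes tested. The authors' deposited table gave Cd93 and C1qbp log2 fold changes of 0.66 and -0.44 and adjusted p of 0.0815 and 0.220. The fold change of Cd93 fell to 0.20 when the length trend was removed, and that of C1qbp was -0.54 after median-of-ratios scaling. Calr and Lrp1, whose proteins take part in C1q-mediated uptake, were at 0.36 (SE 0.22, limma adjusted p = 0.318) and 0.45 (SE 0.21, limma adjusted p = 0.233) on the log2 scale. Over the 19 alternatives Calr ranged from 0.18 to 0.56 and Lrp1 from 0.079 to 0.65.

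The integrin subunits that bind cleaved C3 averaged more TPM in LOY than in control libraries, and none of them passed. Itgam, the alpha chain of complement receptor CR3, stood at 100.1, 248.3, 213.5 and 219.5 TPM in LOY replicates 1 to 4, against 149.0, 95.1, 50.3 and 155.8 TPM in control replicates 1 to 4 (log2 fold change 0.84; limma adjusted p = 0.218). LOY replicate 1 was the LOY library inside the control range. Itgax, the alpha chain of CR4, and their common beta chain Itgb2 had log2 fold changes of 0.58 and 0.34 with limma adjusted p of 0.345 and 0.241. Among the regulators described, Cr1l, which encodes the rodent membrane regulator Crry, varied little, from 153.2 to 184.2 TPM in LOY and from 148.3 to 169.2 TPM in control libraries (log2 fold change 0.12, limma adjusted p = 0.494). Fcna, the gene of the lectin pathway recognition protein ficolin A, stood at 69.96, 12.5, 12.5 and 17.7 TPM in LOY replicates 1 to 4, against 37.1, 37.7, 22.0 and 13.9 TPM in control replicates 1 to 4 (log2 fold change -0.27, SE 0.51; limma adjusted p = 0.771), while its ratio of mean TPM was 1.02.

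**Figure D4:**
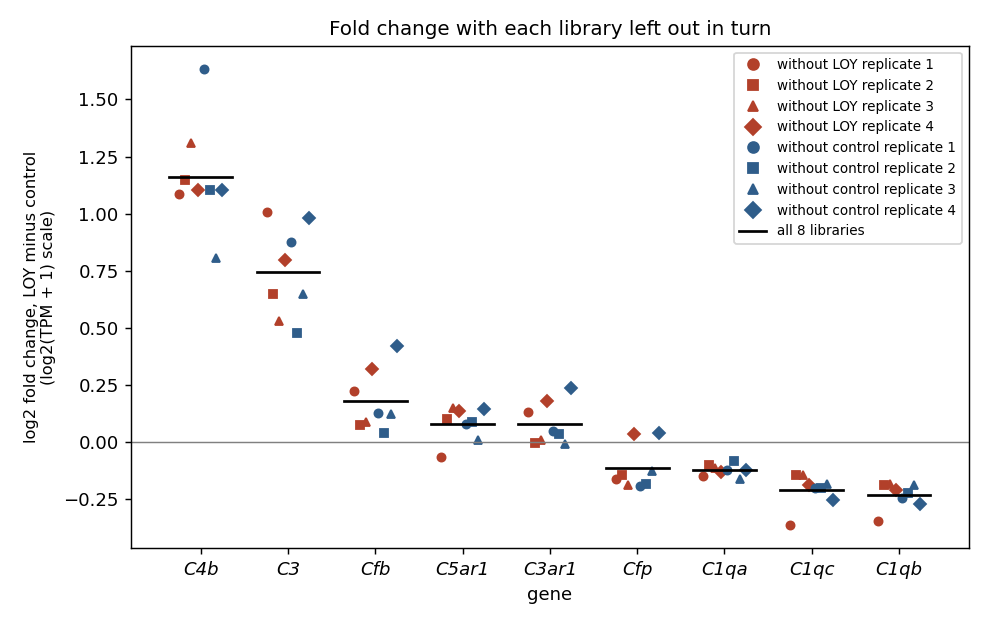
Log2 fold change (LOY minus control, log2(TPM + 1) scale) of the 9 complement genes with each library left out in turn, in red for LOY and blue for control libraries, with the value over all 8 libraries as a black line. C4b and C3 stay above 0 and the 3 C1q genes below 0 in all 8 fits, while C5ar1, C3ar1 and Cfp cross 0.

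Over the 8 fits that each left out a library, C4b ranged from 0.81 to 1.63, C3 from 0.48 to 1.01 and Cfb from 0.041 to 0.42. The C1q genes stayed below 0 in these fits, from -0.16 to -0.085 for C1qa, from -0.35 to -0.19 for C1qb and from -0.37 to -0.14 for C1qc. The precision differed between genes. The 95% interval extended 0.26 to either side of the fold change for C1qa and 0.94 for C4b, against a median of 0.41 over all genes tested.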

How the data were processed

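RNA of sorted cardiac macrophages was measured in 4 LOY and 4 control libraries. Per the labels' protocols, the SMART-Seq v4 kit gave full-length cDNA and Nextera XT the libraries, which keep no strand. STAR 2.5.2b, featureCounts of Subread 1.5.2, Trimmomatic 0.36 and bcl2fastq 2.17 are named, with GRCm38 (mm10), per the submitters' processing notes. No source used here names the tool behind the TPM. The authors deposited TPM per gene and library, read as sums over transcripts from the headers. The deposited table also holds the authors' log2 fold change, p-value and adjusted p, a score (fold change over its error) and a mean signal, baseMean, under DESeq2's column names per the file headers; these are used only where that table is named. Columns WT and KO, numbered 1 to 4, were read as control and LOY from their names.

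A mean of 1 TPM or more over the libraries kept 11881 genes, of which 156 repeats of identical values were removed, leaving 11725. limma 3.58.1 (R 4.3.3, trend and robust) compared log2(TPM + 1), LOY minus control, two-sided, with Benjamini-Hochberg adjustment over all genes and a threshold of 0.05; a pseudocount of 1 understates changes of low genes. The fit was tested on simulated data. Exact permutation used scipy 1.17.1. Coordinates came from GENCODE M21. Alternatives were other pseudocounts and filters, quantile and median-of-ratios scaling, limma's weights per library, removal of a trend on transcript length, a replicate block, each library left out, and, added after the data were seen, the monocyte marker sum as a covariate. The 9 genes and all lists were chosen with earlier results of these data known. Named were the 9 genes, other complement genes with an unadjusted p under 0.05 or a mean over 20 TPM (1 of these is not reported here), and the 5 genes most like C1q and like C3; C6, C8g, Vsig4, Serping1, Clu, the marker genes named singly and the genes below 1 TPM fall outside this rule and were chosen after their values were seen.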

Additional observations from a re-analysis of the deposited data

Results flagged for a closer look

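In 66 groups of 4 libraries examined, 11 held a library whose gap to the nearest of the others as a share of the group's range exceeded the 95% critical value of Dixon's test, as chance alone does in about 1 in 20 groups. The groups are not independent, because they share the same libraries and the ratios were built from genes also examined. The count of 11 therefore cannot be set against that rate. LOY replicate 1 was such a library for C1qb at 11939 TPM (the other LOY libraries 8557 to 9002), for C1qc at 7768 TPM (4899 to 5358), for the ratio of C1qb to C1qa at 2.62 (2.004 to 2.07) and for the ratio of C1qc to C1qa at 1.70 (1.15 to 1.22). The same library stood apart for Fcna at 69.96 TPM (12.5 to 17.7) and for the summed resident macrophage markers at 3180 TPM (1068 to 1395). Control replicate 4 stood apart for Cfb at 1051 TPM (the other controls 478.6 to 572.1). LOY replicate 2 stood apart for each Y-linked gene, with Ddx3y at 14.05 TPM (the other LOY libraries 0.261 to 0.859), Eif2s3y at 22.96 TPM (0.271 to 0.891), Kdm5d at 3.72 TPM (0.546 to 0.683) and Uty at 5.67 TPM (0.203 to 0.471).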

How the results depend on the processing

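Of 19 alternatives, C1qb, C1qc, C3 and C4b kept their direction in all. The number of genes past adjusted p was 0 to 1805 when libraries were left out (1805 without control replicate 1, 5 without LOY replicate 2, 1 without control replicate 4) and 3103 with library weights, and the number at an unadjusted p under 0.05 was 1411 to 3875 and 4779, against 2667 with all libraries. Of the 9 complement genes, 0 to 1 passed in the leave-outs and 2 with library weights, and 0 to 4 had an unadjusted p under 0.05 in the leave-outs, 4 with library weights and 4 with the monocyte covariate, against 1. The 4 without LOY replicate 1 were C1qb, C1qc, C3 and C4b, and the 0 came without control replicate 3. Of other complement genes, 4 to 11 had such a p in the leave-outs, 10 with library weights, 8 with the covariate and 3 at a mean of at least 5 TPM, which drops C2, against 5; without LOY replicate 1 it was 11.

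Direction turned in C1qa at 0.0012 with the length trend removed. C3ar1 turned to -0.10 with median-of-ratios scaling, -0.23 with the length trend removed, and -0.0042 and -0.0088 without LOY replicate 2 or control replicate 3. C5ar1 turned to -0.10, -0.020 and -0.039 with that scaling, the length trend removed and library weights, and to -0.067 without LOY replicate 1. Cfp turned to 0.037 and 0.040 without LOY or control replicate 4, Cfb to -0.0045 with median-of-ratios scaling, and Cr1l to -0.063 and -0.15 with that scaling and the length trend removed. Leave-outs gave -0.0088 to 0.24 for C3ar1, -0.067 to 0.15 for C5ar1 and -0.19 to 0.040 for Cfp. The cause was not tested. Median-of-ratios scaling and quantile normalization took the share of higher genes at an unadjusted p under 0.05 to 49.6% and 50.1%, against 84.8%.

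Over all genes tested, no sign was seen that the replicate numbers pair the libraries. Same-numbered libraries had correlations of deviations from -0.15 to 0.039, and 0 of 8 correlated best with its own number. With a replicate block, C4b was at 1.16 (SE 0.29; limma unadjusted p = 0.0063, adjusted p = 0.212). Without the block its SE was 0.42 and its limma unadjusted p 0.020. An unadjusted p under 0.05 was met with the block by 1 of the 9, by 6 of the other complement genes and by 2489 genes in all.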

Other observations

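The terminal pathway was represented by C6 and C8g. C6, which encodes a membrane attack component, stood at 25.6, 1.80, 1.94 and 4.96 TPM in LOY replicates 1 to 4, against 4.79, 6.31, 2.18 and 1.63 TPM in control replicates 1 to 4, and its highest library, LOY replicate 1, also had the highest Fcna and Lyve1. C8g, which encodes the gamma chain of C8, stood at 3.83, 5.37, 6.03 and 7.12 TPM in LOY replicates 1 to 4, against 7.11, 2.20, 2.07 and 2.64 TPM in control replicates 1 to 4. Like C4b, it was high in control replicate 1. Vsig4, a macrophage receptor for C3b, varied from 2.19 to 9.11 TPM in LOY and from 0.284 to 7.57 TPM in control libraries. Serping1 and Clu, which encode the C1 inhibitor and clusterin, had log2 fold changes of -0.11 and -0.16.

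LOY replicate 2 kept 47.7% of the control Y-linked TPM. Its levels lay inside the range of the other LOY libraries for C1qb, C1qc, C3, C5ar1, Cfp and C4b, and outside it for C1qa, C3ar1 and Cfb. No share over all genes tested stands beside these positions. The part of the Y-linked genes in them was not tested.

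In the authors' deposited table all 12722 genes at 0 TPM in every library had a baseMean of 1, while 392 genes had a baseMean under 1. The baseMean of the 9 genes ran from 1793 for C3 to 258091 for C1qb.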
